A study of Rattus norvegicus with 17 samples.

Results

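A set of 10 genes was followed in hippocampal RNA-Seq libraries of 17 rats: F5 (ENSRNOG00000057855), Aqp1 (ENSRNOG00000011648), ENSRNOG00000001092, ENSRNOG00000010378, ENSRNOG00000039107, ENSRNOG00000023340, ENSRNOG00000054495, ENSRNOG00000026870, ENSRNOG00000016275 and ENSRNOG00000004089. They were chosen by their values, each being more than 1 log2 unit higher in the first library of Site #3 (Site #3 replicate 1) than in any of the 16 other libraries. They are 10 of 22664 genes that are not at 0 in all libraries, and 10 of the 22 genes that pass this threshold (0.0971% of all genes). That gap is what the choice used, so it is given below as a description without a test. The tables at hand pair only F5 and Aqp1 with a symbol, and the remaining 8 genes are called by their Ensembl identifiers.

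All rats were male SAS Sprague Dawley rats, wild type and untreated, killed by decapitation without anaesthesia, and each library held RNA of the whole hippocampus of both hemispheres of 1 rat. The 5 rats of Site #1 and the 6 of Site #2 came from Charles River, arrived at 8.3 weeks of age and were killed after 18 to 19 days. The 6 rats of Site #3 came from Harlan (Envigo), arrived at 8 weeks and were killed after 27 days. Sites #1 and #2 housed the rats singly and used 0.9% saline, while Site #3 housed them in pairs and used bubbled artificial cerebrospinal fluid, so that vendor, housing, time and buffer cannot be told apart from Site #3. Within Site #3 the labels give no feature that sets replicate 1 apart from replicates 2 to 6.

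The choroid plexus is a folded epithelium on a core of vessels and fibroblasts that hangs into the brain ventricles, right beside the hippocampus in the lateral ventricle. Its epithelial cells secrete cerebrospinal fluid and carry ions, water and solutes across their membranes. Aqp1 is a water channel of their apical membrane, and F5 is coagulation factor V, which is also transcribed in this epithelium. The neighbouring ependyma, which lines the ventricle wall, is built of cells with motile cilia, and fibroblasts of the meninges and the plexus stroma make collagens such as Col1a1 and Col6a3.

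The 5 neuronal and 5 astrocyte markers of Site #3 replicate 1 lay within the range of the other libraries. None of them was thus the highest of the 17 libraries there. As only 1721 of all 22664 genes were, little is read from that count. Rbfox3, a nuclear protein of mature neurons, was at 12.15 against 12.08 to 12.33 elsewhere. Medians over genes ran from 7.48 to 7.59 between libraries, and the pairwise correlation across genes from 0.9989 to 0.9998. No other library had any gene more than 1 log2 unit above, or more than 1 below, all of the remaining 16. In bulk RNA, fewer cells of a type and less RNA per cell cannot be told apart.

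The promoters of the genes with a symbol are shown because their transcripts were high together in 1 library while only Aqp1 was high in further ones. Both are RefSeq sequences of the GRCr8 build from 250 bases before to 50 after the gene's start, printed 5′ to 3′. F5 lies on the plus strand, at chr13:79046407-79046706, and Aqp1 on the plus strand, at chr4:85812534-85812833. Capitals mark any match to 3 motifs searched on both strands: the TATA box as TATAAA, the OTX homeodomain motif as GGATTA and a fork-head motif as TGTTTAC.
F5: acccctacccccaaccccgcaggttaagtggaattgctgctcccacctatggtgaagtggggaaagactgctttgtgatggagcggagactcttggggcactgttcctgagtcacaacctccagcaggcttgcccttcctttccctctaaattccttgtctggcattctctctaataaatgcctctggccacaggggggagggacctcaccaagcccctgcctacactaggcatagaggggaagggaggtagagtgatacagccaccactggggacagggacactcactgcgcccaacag
Aqp1: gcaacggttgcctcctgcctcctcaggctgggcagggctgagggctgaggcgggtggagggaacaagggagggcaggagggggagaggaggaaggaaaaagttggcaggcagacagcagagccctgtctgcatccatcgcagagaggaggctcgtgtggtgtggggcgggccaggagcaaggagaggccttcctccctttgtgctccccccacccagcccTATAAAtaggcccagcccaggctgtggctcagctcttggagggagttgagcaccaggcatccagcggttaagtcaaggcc
The Aqp1 window held TATAAA once, beginning 30 bases before the start, and neither of the other motifs. The F5 window held none of the 3. Of 33469 promoters of this length, 14.2% held TATAAA, 7.17% GGATTA and 3.78% TGTTTAC. GC content was 56.7% for F5 and 64.0% for Aqp1. A match is a description of letters, and its absence says nothing about a factor.

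F5 was low in 16 libraries. Its log2 level was 5.41, 5.75, 5.62, 5.53 and 5.64 in replicates 1 to 5 of Site #1. It was 5.76, 5.36, 5.64, 5.37, 5.42 and 5.48 in replicates 1 to 6 of Site #2. At Site #3 it was 12.04 in replicate 1 and 5.52, 5.75, 5.39, 5.45 and 5.46 in replicates 2 to 6. A single library thus stood 6.27 log2 units above the next, whereas the other 16 spanned 0.41 (SD 0.14), and the sites overlapped.

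Aqp1 behaved otherwise. Its level was 5.37, 5.48, 5.60, 5.68 and 6.07 at Site #1, in replicates 1 to 5. At Site #2 it was 5.47, 5.28, 6.18, 5.33, 5.37 and 5.37. At Site #3 it was 7.74 in replicate 1 and 6.14, 5.57, 5.56, 5.70 and 5.54 in replicates 2 to 6. The gap was 1.56 log2 units, the smallest of the 10, and 3 other libraries, 1 of each site, lay above 6 with the remaining 13 at 5.70 or lower.

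Another 5 genes, without a symbol, shared the pattern of F5. ENSRNOG00000001092 was at 13.05 in Site #3 replicate 1 and lay between 5.34 and 5.89 in the others, which at 7.16 was the widest gap among all genes. Its levels were 5.52, 5.47, 5.76, 5.89 and 5.60 at Site #1, 5.60, 5.44, 5.66, 5.48, 5.56 and 5.34 at Site #2 and 5.51, 5.76, 5.52, 5.46 and 5.38 in replicates 2 to 6 of Site #3. ENSRNOG00000010378 was at 12.32, a gap of 6.47 over levels of 5.41, 5.57, 5.85, 5.78 and 5.54 at Site #1, 5.71, 5.50, 5.65, 5.42, 5.42 and 5.47 at Site #2 and 5.41, 5.64, 5.46, 5.42 and 5.41 in replicates 2 to 6 of Site #3. In both genes the 16 libraries lay close together and the sites overlapped. ENSRNOG00000039107 was at 12.68 against 5.43 to 6.22, a gap of 6.46. Together with F5 these took ranks 1 to 4 of the gaps of all 22664 genes. ENSRNOG00000023340 was at 11.77 against 5.15 to 5.65 (gap 6.12), and ENSRNOG00000054495 at 11.70 against 5.38 to 5.85 (gap 5.85). These 6 genes, F5 included, lay between 5.15 and 6.22 in all 16 other libraries and between 11.70 and 13.05 in the one.

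The remaining 3 genes were measured at higher levels elsewhere too. ENSRNOG00000026870 was at 12.27 in Site #3 replicate 1. Its other levels were 6.09, 6.37, 6.82, 7.32 and 6.41 at Site #1, 6.36, 6.21, 6.90, 6.09, 5.88 and 6.32 at Site #2, and 6.04, 6.35, 6.17, 6.21 and 6.33 at Site #3, replicates 2 to 6. Replicate 4 of Site #1 was its second highest library, and the gap was 4.95. ENSRNOG00000016275 was at 14.33 in Site #3 replicate 1. Its other levels were 8.26, 9.39, 10.07, 9.70 and 8.92 at Site #1, 9.35, 8.09, 10.12, 8.26, 7.54 and 8.06 at Site #2, and 8.19, 9.42, 7.92, 8.09 and 8.75 at Site #3. It was the most variable of the 10, with a range of 2.58 over the 16 libraries and a gap of 4.20. ENSRNOG00000004089 was abundant everywhere. It was at 14.67 in Site #3 replicate 1 and at 12.53 to 12.96 in the others, which gave a gap of 1.70. Those levels were 12.84, 12.71, 12.84, 12.81 and 12.59 at Site #1, 12.96, 12.96, 12.86, 12.71, 12.65 and 12.95 at Site #2 and 12.53, 12.83, 12.67, 12.89 and 12.62 in replicates 2 to 6 of Site #3, with overlapping sites.

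**Figure D1:**
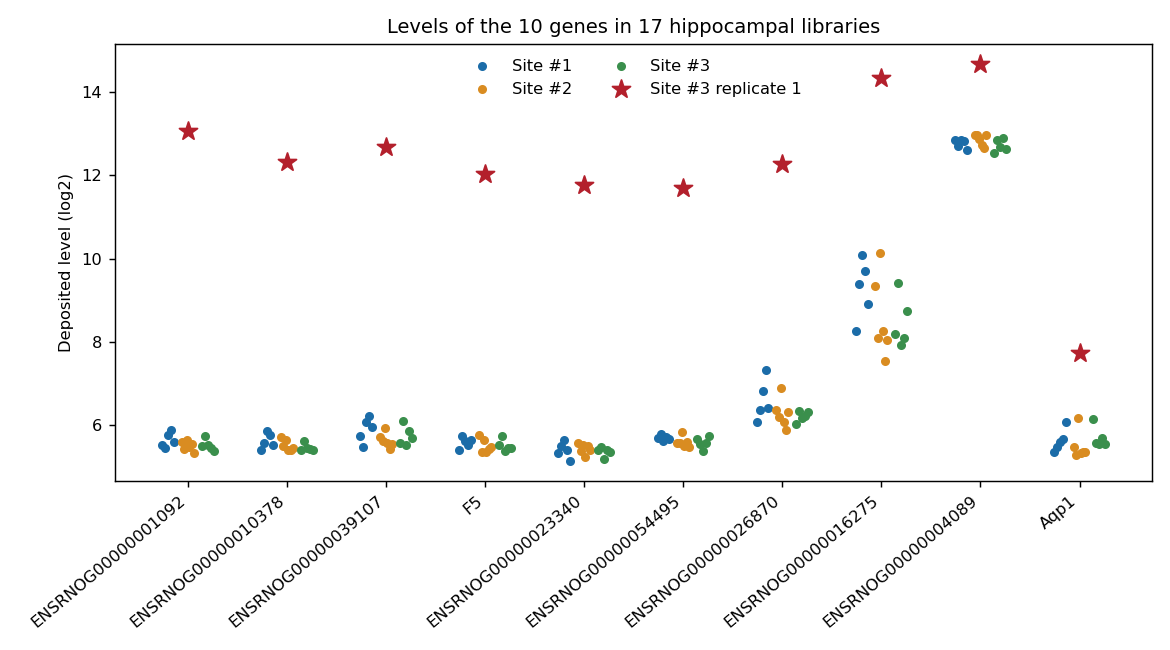
Deposited log2 level (y axis) of each of the 10 genes (x axis, ordered by gap), with 1 point per library coloured by site and a star for Site #3 replicate 1. The star lies above every point of its gene, by 7.16 for ENSRNOG00000001092 at the left and by 1.56 for Aqp1 at the right.

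On the back-transformed scale, with each library scaled to the same sum (approximate CPM), the 10 genes added up to 2058 in Site #3 replicate 1 and to 164 to 224 in the others. Without the abundant ENSRNOG00000016275 and ENSRNOG00000004089, the sum was 902 against 8.73 to 13.3. Each of the 10 genes averaged at least 1 approximate CPM over the 16 other libraries, as 13674 genes did, with 7 of the 10 near that minimum (1.05 to 1.35).

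The gaps of the 10 genes had a median of 5.98, beside -0.10 for all genes. Of them 8 exceeded 4 log2 units, and no other gene exceeded 2.55. The other 12 genes past the threshold had gaps down to 1.01, and 7 of them averaged at least 1 approximate CPM over all 17 libraries, the one where they are high included. With that average, the last genes inside the threshold were ENSRNOG00000017560, at 11.30 against 9.54 to 10.03 (gap 1.27), and ENSRNOG00000002831, at 8.47 against 6.93 to 7.46 (gap 1.01). The first outside were ENSRNOG00000003472, at 9.59 against 8.19 to 8.61, and Itgb6, an integrin subunit of epithelia, at 6.98 against 5.67 to 6.00, both with a gap of 0.98.

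**Figure D2:**
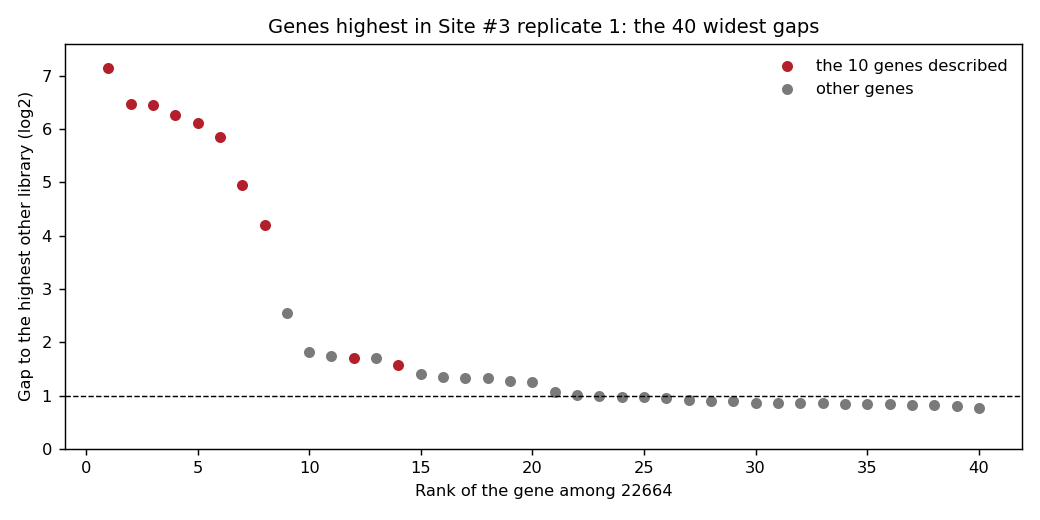
Gap between Site #3 replicate 1 and the highest of the 16 other libraries in log2 units (y axis) for the 40 genes with the widest gaps (x axis, rank among 22664), with the 10 genes in red and the dashed line at 1. Ranks 1 to 8 are all red and end at 4.20, and the first grey point is at 2.55.

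The label given to the genes was checked against markers. Of 50 choroid plexus markers listed, 9 had an identifier in the tables used here, F5 and Aqp1 among them; the rest, with defining ones such as Ttr, Folr1, Kl and Otx2, were not matched to an identifier, and the 8 genes without a symbol may include some of them. Of the 7 that are not among the 10 genes, 3 were highest in Site #3 replicate 1, where 6.59% of all genes with at least 1 approximate CPM were. Slc2a12, a glucose transporter, was at 8.71 against 7.13 to 8.10, a gap of 0.61. Steap2, a metal reductase, was at 8.72 against 8.11 to 8.45, and Abcc4, an efflux pump, at 9.02 against 8.67 to 8.94. Car12, a carbonic anhydrase, was at 12.17 within 11.49 to 12.21, and Slc29a4, Atp1b1 and Perp were also within the range of the others. The summed level of the 7 was 2435 approximate CPM against 2249 to 2752. Most of that sum came from Atp1b1 alone, at 16.47 in Site #3 replicate 1, so it says little of the 3 markers that were highest. The choice used the values of F5 and Aqp1, so by symbol the name could be checked on the other 7 markers only. Whether choroid plexus RNA accounts for the gaps was not tested.

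Markers of neighbouring cells were read in the same way. Of 5 genes of motile cilia, 4 were highest in Site #3 replicate 1: Cfap52 by 0.48, Wdr63 by 0.45, Ccdc114 by 0.39 and Dnai2 by 0.15 log2 units. Dnah9, a ciliary dynein heavy chain, was at 10.86 within 10.10 to 11.24, and the summed level of the 5 was 62.9 approximate CPM against 38.1 to 70.0. Of 4 fibroblast markers, Col6a3 was highest there, at 8.33 against 6.59 to 7.85, and the summed level was 56.4 against 14.4 to 61.6. None of 5 endothelial and mural markers, 1 of 2 blood and macrophage markers (Cd163, by 0.02) and 1 of 2 thalamic markers (Zfhx3, by 0.04) were highest in that library. Beside these counts, which had no filter on level, 1721 of all 22664 genes were highest there. Among genes with at least 1 approximate CPM the share was 6.59%. All 5 ciliary, 4 fibroblast, 5 endothelial and mural, 2 blood and macrophage and 2 thalamic markers were above the median of the others there. The median difference was 0.50 log2 units for the ciliary, 1.45 for the fibroblast and 0.16 for the endothelial and mural markers. Of the neuronal and the astrocyte markers, 2 of 5 each were above the median of the others. Of the 7 choroid plexus markers outside the 10 genes, 4 were above it, with a median difference of 0.22. For all genes with at least 1 approximate CPM the median difference was -0.005. The part of the neighbouring cells in the gaps was not tested.

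In the 16 other libraries, which the choice used only as the lower side of the gap, the 10 genes were variable for their level. Their SDs ran from 0.12 (ENSRNOG00000054495) to 0.82 (ENSRNOG00000016275), beside a median of 0.08 to 0.10 among genes of similar level. Between 83.1% and 99.9% of genes of similar level had a lower SD. If the deposited values were normalized with Site #3 replicate 1 included, that library could bear on these SDs, which was not tested. Replicate 3 of Site #2 was among the 4 highest of the 16 libraries for 7 of the 10 genes, and replicates 3 and 4 of Site #1 for 6 each. Replicate 4 of Site #2 was among the 4 lowest for 6 genes and among the 4 highest for none.

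Their levels ran partly together over these libraries. The median Pearson r over the 45 pairs of genes was 0.39, with a range from -0.38 (Aqp1 and ENSRNOG00000004089) to 0.87 (ENSRNOG00000010378 and ENSRNOG00000016275). Of the pairs, 16 (35.6%) reached 0.5, beside 7.85% of all pairs among 13674 genes, whose median was -0.00. The r values are descriptions over 16 libraries that share their processing and normalization. The median was 0.23 without the 4 libraries highest in ENSRNOG00000016275, a reading chosen after the data were seen.

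ENSRNOG00000016275 had the closest ties to the other genes. Its r with ENSRNOG00000010378 was 0.87, its rho 0.69, its r 0.85 after centring on the site means and 0.84 without the 2 libraries farthest from its median. With ENSRNOG00000026870 it had r 0.82 (rho 0.83, centred 0.78, without the 2 libraries 0.74). With F5 it had r 0.75 (rho 0.69, centred 0.73, without them 0.78). Its r was 0.71 with ENSRNOG00000039107 and 0.68 with ENSRNOG00000001092. It was 0.54 with ENSRNOG00000054495 (centred 0.43, without the 2 libraries 0.47) and 0.52 with ENSRNOG00000023340 (centred 0.58, without them 0.30). With Aqp1 the r was 0.38, and with ENSRNOG00000004089 0.22. Of the 9 others 7 thus reached 0.5 with it, while Aqp1 and ENSRNOG00000004089 reached 0.5 with none of the 10. Without the 2 libraries, ENSRNOG00000054495 and ENSRNOG00000023340 fell below 0.5 with it.

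**Figure D3:**
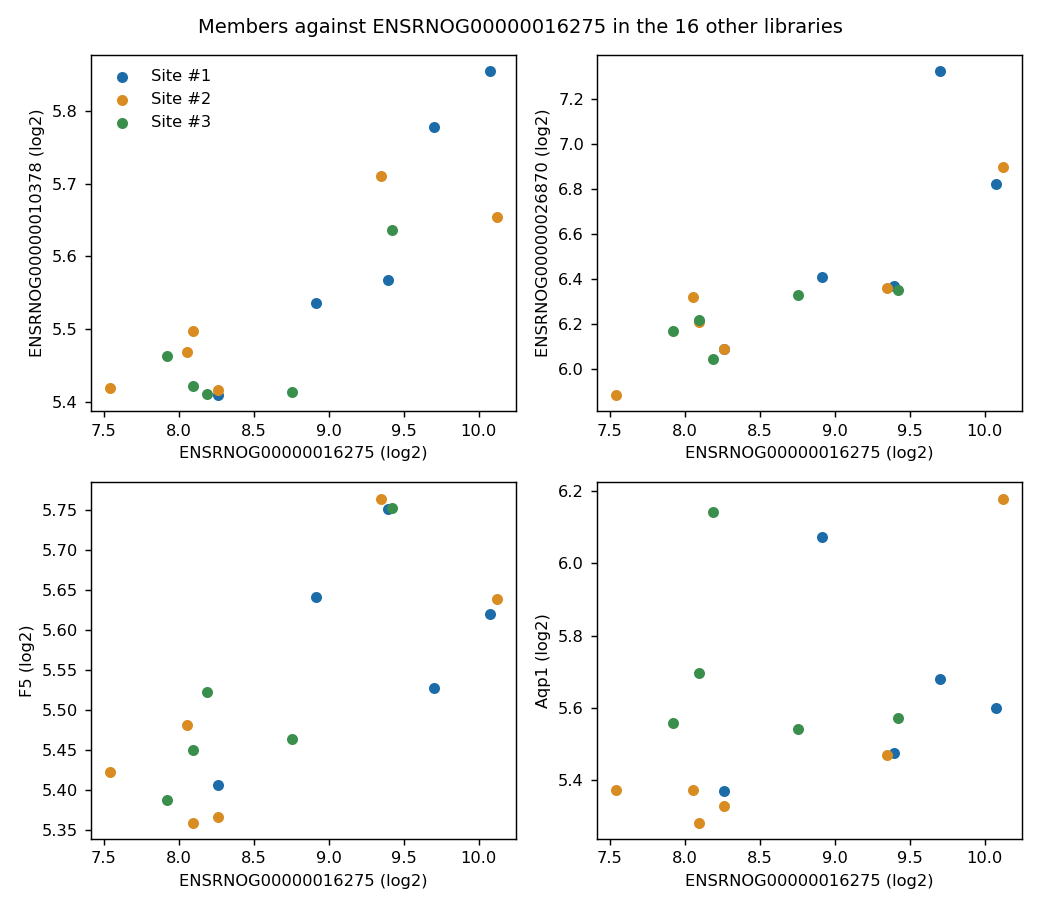
Log2 levels of ENSRNOG00000010378, ENSRNOG00000026870, F5 and Aqp1 (y axes) against ENSRNOG00000016275 (x axes) in the 16 other libraries, 1 point per library coloured by site. The first 3 panels rise from left to right (r 0.87, 0.82 and 0.75), while the 3 highest Aqp1 points lie at low, middle and high levels of ENSRNOG00000016275 (r 0.38).

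**Figure D4:**
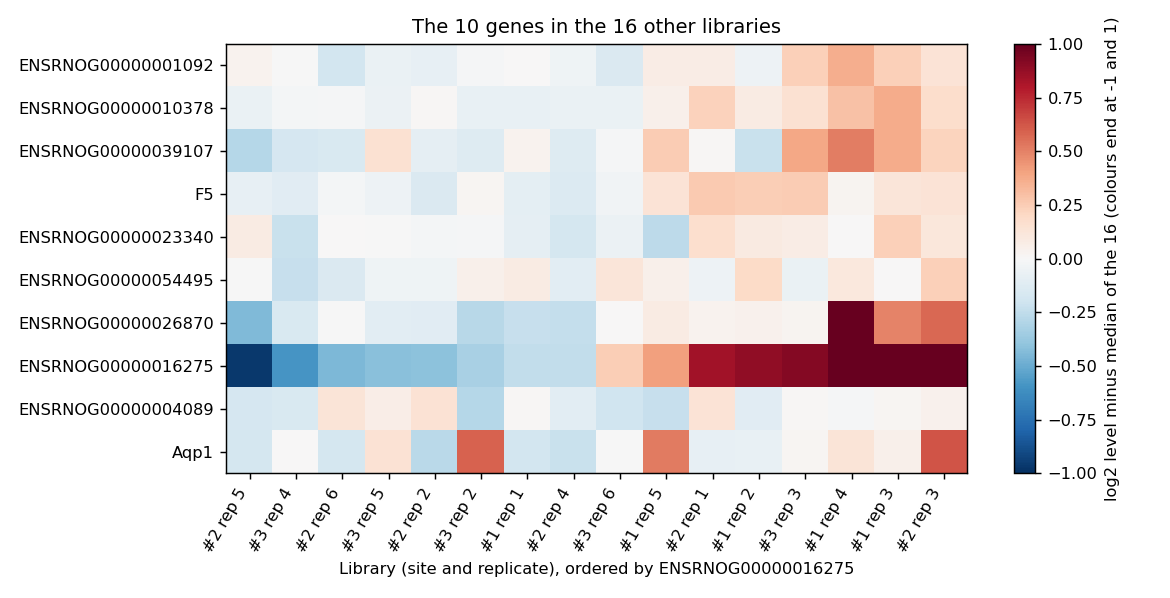
Log2 level minus the median of the 16 other libraries (colour, ending at -1 and 1) for the 10 genes (rows), with libraries (columns) ordered by ENSRNOG00000016275. Towards the right, in replicates 3 and 4 of Site #1 and replicate 3 of Site #2, the rows lie above their median, some only slightly. The exception is ENSRNOG00000004089 in replicate 4 of Site #1.

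The size of this common variation differed by gene. For each gene, the excess over the median of the 16 libraries, on the back-transformed scale, was set against its excess in Site #3 replicate 1, the value the choice used, as a description. In replicate 3 of Site #2 it was 3.72% for ENSRNOG00000016275, 0.80% for ENSRNOG00000026870, 0.11% for F5, 0.11% for ENSRNOG00000010378 and 15.3% for Aqp1. The remaining genes were between 0.05% (ENSRNOG00000001092) and 1.10% (ENSRNOG00000004089) there. In replicate 3 of Site #1 it was 3.54% for ENSRNOG00000016275, 0.68% for ENSRNOG00000026870, 0.09% for F5, 0.26% for ENSRNOG00000010378 and 0.97% for Aqp1. The remaining genes were between 0.003% (ENSRNOG00000054495) and 0.49% (ENSRNOG00000004089) there. Replicate 3 of Site #2, with the higher percentage of Aqp1, is also a library with high Col1a1 (10.64). In replicate 4 of Site #1 it was 2.65% for Aqp1, 2.32% for ENSRNOG00000016275 and 1.64% for ENSRNOG00000026870, which lie near each other, and the 7 remaining genes were between -0.31% (ENSRNOG00000004089) and 0.34% (ENSRNOG00000039107). In replicate 3 of Site #3 it was 1.60% for ENSRNOG00000016275 and between -0.07% (ENSRNOG00000054495) and 0.41% (Aqp1) for the others. These 4 libraries are the highest of the 16 in ENSRNOG00000016275, so a high percentage of that gene is built into their choice. The normalization behind the deposited values is not given in the sources used here, and its part in these percentages was not tested.

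Genes outside the 10 were ranked by how closely their levels followed the mean of the 10 over the 16 libraries. Only 12 genes outside the 10 had a gap over 1 log2 unit, so few of those ranked could share it. The 5 most alike had r from 0.70 to 0.80, none had a symbol, and the first was ENSRNOG00000017382 (r 0.80), at 9.61 in Site #3 replicate 1 against 9.27 to 9.57. Among the 50 most alike (r 0.61 to 0.80), 2 were highest in Site #3 replicate 1, beside 6.59% of all genes. The count is near that share, so nothing is read from it about likeness. Taken gene by gene, 13 of the 50 most like ENSRNOG00000054495 and 25 of the 50 most like Aqp1 were highest there. For each of the other genes it was 1 to 5 of 50.

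Aqp1 was highest in libraries where collagen genes were high. Col1a1, the chain of type I collagen, was at 10.95 in replicate 5 of Site #1, 10.64 in replicate 3 of Site #2 and 10.07 in replicate 2 of Site #3, and between 8.53 and 8.95 in 13 libraries. These 3 libraries were also the highest 3 of the 16 for Aqp1, at 6.07, 6.18 and 6.14 against 5.28 to 5.70 in the 13, and for no other of the 10 genes did they lie above all of the 13. Of all 22664 genes, 1.17% lay above all of the 13 in each of these 3 libraries. Site #3 replicate 1 was at 10.70 for Col1a1, below replicate 5 of Site #1, and at 7.74 for Aqp1, the value the choice used. Whether these levels are linked in that library was not tested. Since the libraries fall into separate clusters, no pooled r is given for Col1a1. Within the 13 libraries the r of Aqp1 was -0.23 with Col1a1, 0.45 with Slc22a6, an organic anion transporter, and 0.41 with Col6a3.

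The genes most like Aqp1 were found over all 16 libraries, these 3 included. The 50 most alike included Slc22a6, Mrc2, a collagen receptor, Col6a3, Fmod, a collagen-binding proteoglycan, and Kank2, and had r with Aqp1 of 0.85 to 0.94 over the 16 and of 0.11 to 0.75 (median 0.45) within the 13. All 50 were above the median of the other libraries in Site #3 replicate 1, by a median of 0.77 log2 units, and 25 were highest there, beside 6.59% of all genes. Fmod was at 10.31 in that library, 9.42 to 9.98 in the 3 and 7.97 to 8.65 in the 13. Slc22a6 was at 7.99, 7.77 to 8.06 and 6.27 to 6.93 in the same order. F5 was at 5.52 to 5.64 in the 3 libraries and 5.36 to 5.76 in the 13.

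**Figure D5:**
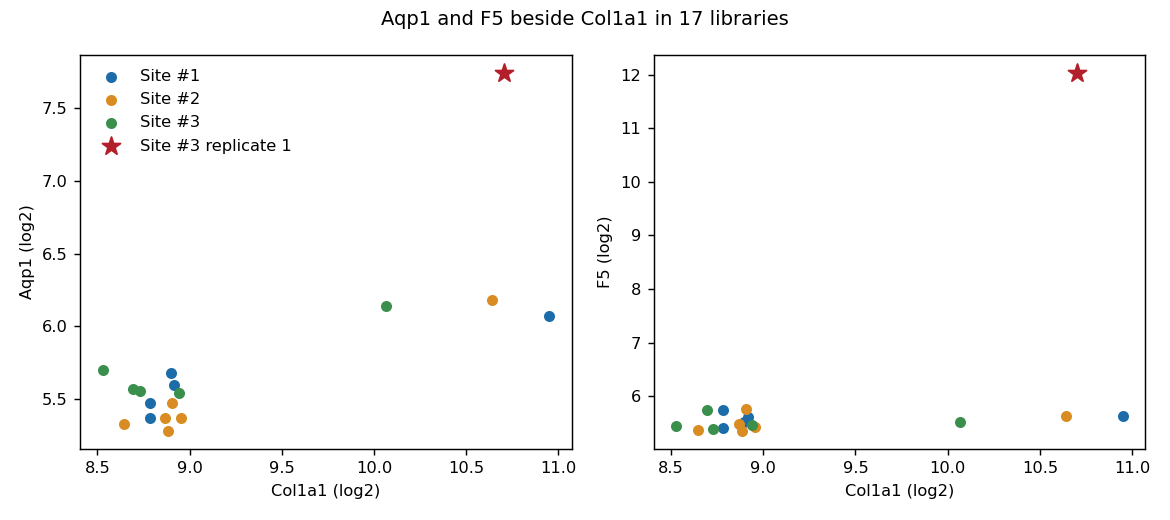
Log2 levels of Aqp1 (left y axis) and F5 (right y axis) against Col1a1 (x axes) in 17 libraries, 1 point per library coloured by site and a star for Site #3 replicate 1. The 3 points with Col1a1 above 10 have the highest Aqp1 among the 16 (6.07 to 6.18), while their F5 (5.52 to 5.64) lies within the range of the other 13.

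The question of the study, whether sites differ, was put to the 10 genes with Site #3 replicate 1 left out, since the choice had used it. None of the 10 passed limma with an adjusted p under 0.05 in any of the 3 comparisons, and none had an unadjusted p under 0.05. With 1 library left out, the unadjusted count rose to at most 4 between Sites #1 and #2, without replicate 3 of Site #2 (1284 of all 22664 genes). Between Sites #1 and #3 it rose to at most 3, without replicate 1 of Site #1 (1953 of all genes), and between Sites #2 and #3 to at most 1. Between Sites #1 and #2, 0.0% of all genes passed (0 of 22664, with 1527 at an unadjusted p under 0.05). Between Sites #1 and #3 0.0529% passed (12 genes, with 1727 unadjusted), and between Sites #2 and #3 0.653% (148 genes, with 3055 unadjusted). The 148 became 24 without replicate 5 of Site #3, 30 without its replicate 6 and 34 without its replicate 2.

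ENSRNOG00000016275 was at 9.27 ± 0.71 (SD, n = 5) at Site #1, 8.57 ± 0.97 (n = 6) at Site #2 and 8.47 ± 0.62 (n = 5) at Site #3. Its difference between Sites #1 and #3 was -0.79 log2 units (SE 0.37, limma adjusted p = 0.662), the member with the smallest p there, and the ranges overlapped. ENSRNOG00000039107 was lower at Site #2 than at Site #1 by a difference of -0.26 (SE 0.13, limma adjusted p = 0.744). ENSRNOG00000004089 differed by -0.14 (SE 0.08, limma adjusted p = 0.473) between Sites #2 and #3. F5 was at 5.59 ± 0.13 (SD, n = 5), 5.51 ± 0.16 (n = 6) and 5.52 ± 0.14 (n = 5) at Sites #1, #2 and #3. Aqp1 was at 5.64 ± 0.27, 5.50 ± 0.34 and 5.70 ± 0.25 in the same order and with the same n.

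With Site #3 replicate 1 kept, all 10 genes were higher on average at Site #3 in both comparisons with it. The mean of F5 at Site #3 became 6.60 ± 2.67 (SD, n = 6), and its difference from Site #1 was 1.01 (SE 1.06, limma adjusted p = 0.836). That library also widens the SD, so nothing is read from the 0 of 10 genes called there, beside 0.101% and 1.05% of all genes. Without it, Aqp1 was the only one with a higher mean at Site #3 than at Site #1, and 4 of the 10 had a higher mean than at Site #2. Leaving out 1 further library moved the first count to between 0 and 2 and the second to between 2 and 7.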

How the data were processed

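RNA-Seq libraries of 17 rats (5, 6 and 6 from Sites #1, #2 and #3) carry their site and a replicate number in the labels, which gave the groups. The authors used Trimmomatic for trimming, HISAT2 for alignment to rn6, featureCounts for gene counts and DESeq2 for testing. The deposited values are log2 levels of Ensembl genes in each library, from -2.28 to 20.22; the normalization step is not given in the sources used here. If they are regularized log values, low genes are shrunk towards their own mean, in which Site #3 replicate 1 would count. This would bear on their SDs, approximate CPM, place above the minimum of 1 approximate CPM and excess percentages, and was not tested. The values hold no counts, so depth is unknown and no floor or interval is given. Of 32494 genes, 9830 with 0 in every library were dropped and 22664 were tested. The plan named a count test for counts and limma for log2 values, and limma 3.58.1 in R 4.3.3 was used. Each pair of sites was fitted by lmFit, then eBayes (trend on), two-sided, with Benjamini-Hochberg adjustment over all genes, without Site #3 replicate 1; the code was tested on simulated data. A gap is the level in Site #3 replicate 1 minus the highest of the other 16.

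The 10 genes and the marker lists were chosen with earlier results of these data known. Text names all 10 genes, markers with a gap over 0.5 or that decide a check, the genes nearest the threshold and, at most, 2 without a symbol among those most alike; Aqp1's and Col1a1's comparison and the smaller marker gaps were chosen after their values were seen. Symbols came from the study's supplementary tables, which gave 1436 of the genes tested a symbol. RefSeq promoters were matched by symbol for 2 of 10 genes. Libraries were not identical (0 pairs). Alternatives were the fit without trend, 1 fit over 16 libraries, a replicate block, a filter on low values, quantile normalization, other thresholds and leaving out each library. Same-numbered libraries are of different rats.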

Additional observations from a re-analysis of the deposited data

Results flagged for a closer look

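Among 30 groups of values (10 genes at 3 sites, with Site #3 replicate 1 kept), 11 had a library that stood far from the others of its site. Since the choice fixed 10 of them, this count is not set beside a chance rate. Of these, 10 are the highest library of Site #3, replicate 1, and are the values the choice used: F5 at 12.04, Aqp1 at 7.74, ENSRNOG00000001092 at 13.05, ENSRNOG00000010378 at 12.32, ENSRNOG00000039107 at 12.68, ENSRNOG00000023340 at 11.77, ENSRNOG00000054495 at 11.70, ENSRNOG00000026870 at 12.27, ENSRNOG00000016275 at 14.33 and ENSRNOG00000004089 at 14.67. The remaining one is Aqp1 at 6.18 in replicate 3 of Site #2, the library with Col1a1 at 10.64. Chance gives about 1 in 20 groups, so this 1 flag is not read as a result.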

How the results depend on the processing

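The gap chose the genes, and leaving out another library or lowering the threshold to 0.5 can only keep its count at 10; it was also 10 under quantile normalization, median centring and the sum-scaled values, and 8 at a threshold of 2 log2 units, added after the data were seen. No gene of the 10 was called between any sites under any alternative, and the smallest adjusted p of limma ran from 0.537 to 0.879, 0.423 to 0.868 and 0.225 to 0.661 for Sites #1 and #2, #1 and #3, and #2 and #3. With the replicate block the count was 0 in all 3, and 4 of the 10 had an unadjusted p under 0.05 between Sites #1 and #3, as had 4.67% of all genes (1058 of 22664); same-numbered libraries had deviations correlated from -0.459 to 0.390, so the numbers do not pair rats. The calls over all genes moved more: for Sites #2 and #3 from 148 to 7 with the block, to 271 with only genes of at least 1 approximate CPM, and, with 1 library left out, to 129 without replicate 1 of Site #2 and to 24 to 90 without any of the others (without replicates 2 to 6 of Site #2 67, 77, 78, 90 and 48, and of Site #3 34, 82, 77, 24 and 30); for Sites #1 and #3 from 12 to 0 with the block, 31 with 16 libraries in 1 fit, 24 with that filter and 8 to 17 with 1 library left out. With Site #3 replicate 1 kept, the difference of ENSRNOG00000016275 between Sites #1 and #3 turned to 0.18 and that of ENSRNOG00000004089 between Sites #2 and #3 to 0.19; the added library sets both. The median r between the genes was 0.43 as Spearman rho, 0.35 after quantile normalization, 0.36 without ENSRNOG00000016275, 0.23 without its 4 highest libraries, and 0.32 to 0.44 with each library left out in turn, lowest without replicate 3 of Site #2 and highest without replicate 2 of Site #3. The number of rats limits the precision.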
